A study of Danio rerio with 6 samples.

Results

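The embryonic margin is the ring of cells at the edge of the zebrafish blastoderm from which mesoderm arises. A set of 9 transcription factor genes active in that ring and in the later tailbud was followed here among the 31953 genes of the deposited files, chosen by gene name: ta, tbx16, tbx6, msgn1, her1, her7, hes6, eve1 and cdx4. Each name matched 1 row. RNA came from 6 hpf (hours post fertilisation) embryos of the strain Tg(krt18:krt18-GFP), whose enveloping layer (EVL), the outer epithelial sheet, is marked by a keratin fused to GFP. All 6 libraries carry this transgene. Dissociated cells were sorted by GFP. The 3 positive libraries stand for the EVL and the 3 negative ones for all other cells, and the study asked how expression differs between them. About 1500 embryos and 10000 sorted GFP-positive cells are named in the labels, which do not say whether that is per library, nor give the regulatory sequence behind the krt18 name or the number of GFP-negative cells. The GFP-negative group is a mixture of all other cells, of which the margin is a part of unstated size. In such bulk samples, fewer cells of a type and less RNA per cell cannot be told apart.

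T-box proteins, which bind DNA through a shared domain, specify mesoderm at the margin under Nodal, FGF and Wnt signals. The paraxial cells they set aside then form somites under a segmentation clock, in which Hairy/Enhancer-of-split repressors switch their own genes off in cycles coupled by Notch signalling. Caudal and even-skipped homeobox factors pattern the ventral and posterior part of the same territory.

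Of the 9 genes, 3 were lower in EVL cells and 0 were higher: the clock gene her7 (3.57-fold), the even-skipped gene eve1 (2.80-fold) and the clock partner hes6 (1.81-fold). A further clock gene, her1, and the Brachyury gene ta missed the threshold at log2 fold changes of -0.99 and -0.92. The T-box genes tbx16 and tbx6, the bHLH gene msgn1 and the caudal gene cdx4 had intervals that spanned 0. Calls are from limma on log2(normalised reads + 1) at a Benjamini-Hochberg adjusted p under 0.05 over all 15971 tested genes, a scale that slightly understates changes of low genes. All 9 genes passed the filter on low values. Among all tested genes 0.676% were called lower and 8.8% higher. The median log2 fold change of the 9 genes was -0.86, against -0.057 for all tested genes, and 8 of the 9 were below 0, as were 53.8% of all tested genes. Some lists for other cell types were also below 0: neural and pluripotent ectoderm markers had a median of -0.81, with 9 of 9 tested genes below 0 and 3 called lower, and germ cell markers had a median of -2.24, with 6 of 6 below 0 and 3 called lower. The dorsal mesoderm and organizer list had a median of 0.057, and a value below 0 was thus shared by some of these lists and not by others. Limma's treat, which tests for changes past 2-fold, called 0 of the 9 genes and 0.0125% of all genes lower. For her7 the treat p was 0.0129 unadjusted and 0.184 adjusted over all tested genes.

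The libraries held 32.2M to 46.1M reads assigned to genes, of which the most abundant gene took 30.1% to 42.7%. The 9 genes had 206 to 47583 reads per gene and library. The libraries carried no molecular identifiers, so reads do not give the number of RNA molecules captured. The counting error of the levels was therefore not measured. All 15 of 15 EVL marker genes on a list were higher in GFP-positive cells, with a summed level of 717062 to 2387570 normalised reads there and 37139 to 49734 in GFP-negative cells. The list includes krt18, the gene named in the transgene used for sorting, so its call is not independent of the sort. All lists were written with earlier results of these data known, so 15 of 15 is no independent check of the sort. Keratins weigh heavily in the sum: krt4, krt8 and krt5 averaged 362423, 226329 and 141519 in GFP-positive cells. No label ties the libraries to separate clutches, sorts or days, so it is not known whether the spread that the p-values rest on is biological or technical. Some genes, tbx6 among them, had the same highest and the same lowest replicate number in both groups. Reads were not stated to be counted by strand, and levels are not adjusted for gene length, so they are compared between groups and not between genes.

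**Figure D1:**
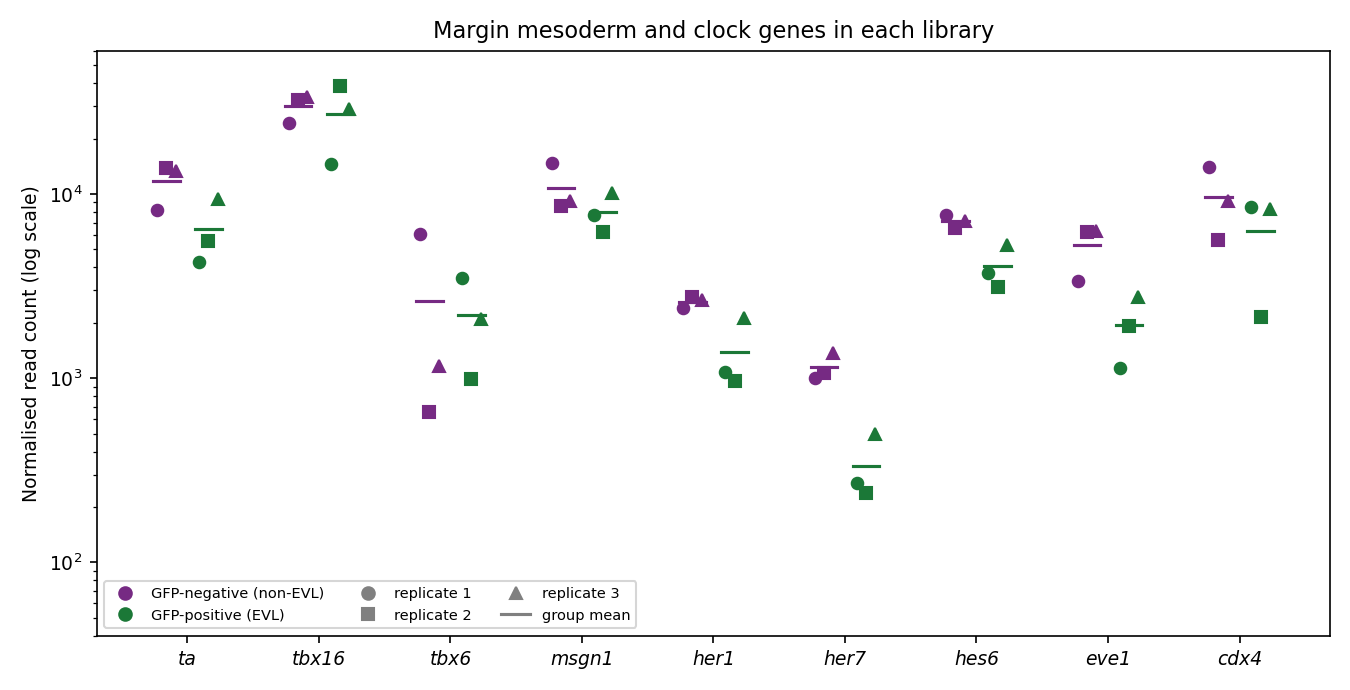
Normalised read counts (log axis) of the 9 genes in each of the 6 libraries, with group means as lines and replicates as shapes. The groups separate for her1, her7, hes6 and eve1 and overlap for the other 5 genes, and tbx6 spans 659 to 6084 within the GFP-negative group.

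The clock gene her7 had the lowest log2 fold change of the 9 genes. It encodes a Hairy-related repressor of the clock. There were 271, 239 and 496 normalised reads in GFP-positive replicates 1, 2 and 3, and 1008, 1066 and 1371 in GFP-negative replicates 1, 2 and 3. Every GFP-positive library was below every GFP-negative one. The group means were 336 ± 140 and 1148 ± 195 (SD, n = 3 each), and the log2 fold change was -1.83 (SE 0.31; limma, adjusted p = 0.00721; 95% interval -2.54 to -1.13). Only 0.570% of all tested genes had a lower log2 fold change. The call held in all 18 alternative settings tried, with log2 fold changes from -2.15 to -1.63 and adjusted p-values (limma, edgeR or DESeq2) up to 0.0391.

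The gene her1 encodes a second repressor of the clock and lies next to her7 in the RefSeq gene order of the assembly GRCz12tu. Its normalised reads were 1085, 969 and 2124 in GFP-positive replicates 1, 2 and 3, and 2410, 2753 and 2655 in GFP-negative replicates 1, 2 and 3. The groups did not overlap, and GFP-positive replicate 3 came closest to the GFP-negative libraries. Its log2 fold change was -0.99 (SE 0.29; 95% interval -1.66 to -0.33), which did not pass the test over all genes (limma, adjusted p = 0.0757). Without GFP-positive replicate 3 it was -1.34 and passed (limma, adjusted p = 0.00504). It also passed with libraries scaled to their size alone in limma (-1.30, adjusted p = 0.0280) and in edgeR (-1.19, adjusted p = 0.0482). That scaling lowered genes at large: the median of all tested genes was -0.36 and -0.37, and 1191 and 930 were called lower.

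The gene hes6, listed by RefSeq also as her13.2, encodes a Hairy-related partner that binds the Her proteins and does not itself cycle in zebrafish. It had 3705, 3119 and 5304 normalised reads in GFP-positive replicates 1, 2 and 3, and 7739, 6538 and 7174 in GFP-negative replicates 1, 2 and 3. The groups did not overlap, and the GFP-negative libraries lay within 1.18 times of each other. This gave a log2 fold change of -0.86 (SE 0.21; limma, adjusted p = 0.0402; 95% interval -1.34 to -0.37). Of the 6 fits that left out a library, 1 kept the call, the one without GFP-positive replicate 3; the others had adjusted p-values of 0.0984 to 0.130. The call was also lost in edgeR with TMM (adjusted p = 0.0645).

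The ratio of the neighbouring clock genes her7 and her1 did not overlap between the groups. Within each library, her7 reads were 25.0%, 24.7% and 23.4% of her1 reads in GFP-positive replicates 1, 2 and 3. In GFP-negative replicates 1, 2 and 3 they were 41.8%, 38.7% and 51.6%. The GFP-positive ratios lay below all GFP-negative ones (24.4% ± 0.87 against 44.1% ± 6.75, SD, n = 3 each). They rest on 206, 216 and 440 her7 reads in GFP-positive replicates 1, 2 and 3. Counting error is not small beside their spread, so no meaning is given to how close together they lie. Against hes6, her7 stood at 7.32%, 7.67% and 9.36% in GFP-positive and at 13.0%, 16.3% and 19.1% in GFP-negative replicates 1, 2 and 3, again without overlap. A ratio within a library does not depend on how libraries are scaled. Both ratios restate that her7 had a lower log2 fold change than her1 and hes6, and they are no separate evidence. The exact two-sided permutation p was 0.1 for each, the smallest that 3 against 3 allows, and 0.133 adjusted over the 4 ratios computed, which were chosen after the values were seen.

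**Figure D2:**
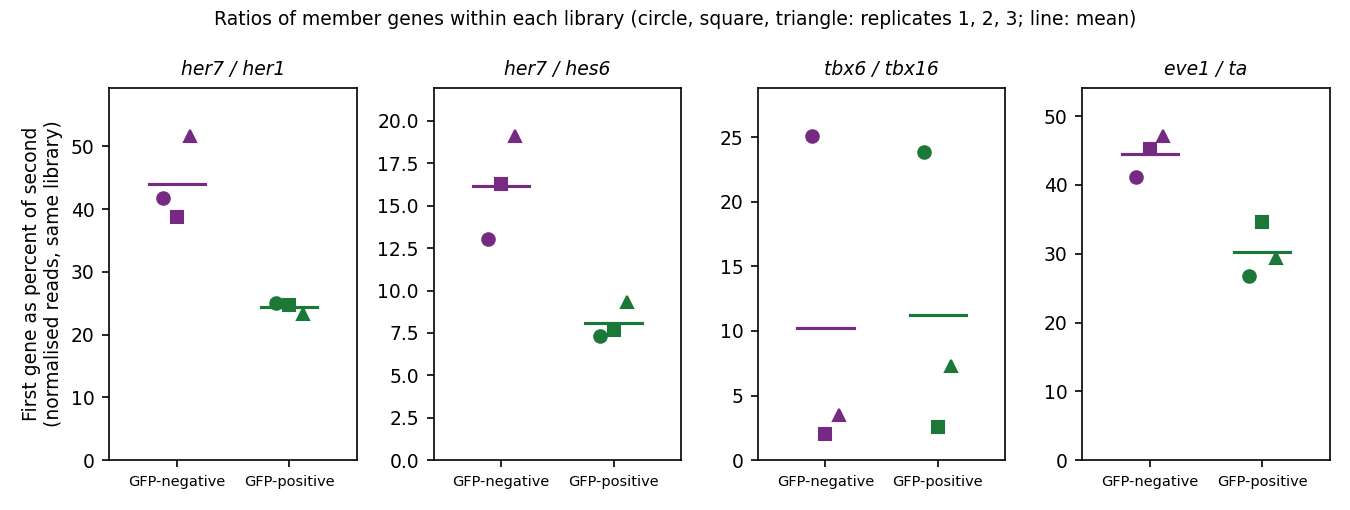
Reads of one gene as a percent of another in the same library, for 4 pairs, by group and replicate with group means as lines. Values of her7 over her1 sit between 23.4% and 25.0% in GFP-positive libraries and between 38.7% and 51.6% in GFP-negative ones, and tbx6 over tbx16 is highest in replicate 1 of both groups.

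Among the homeobox genes, eve1 encodes an even-skipped-related factor of the ventral margin and tailbud. It had 1138, 1931 and 2771 normalised reads in GFP-positive replicates 1, 2 and 3, and 3382, 6258 and 6298 in GFP-negative replicates 1, 2 and 3. The groups did not overlap, and replicate 1 was the lowest library of each group. The group means were 1947 ± 817 and 5313 ± 1672 (SD, n = 3 each), with a log2 fold change of -1.48 (SE 0.36; limma, adjusted p = 0.0389; 95% interval -2.31 to -0.65). The call held without GFP-positive replicate 3 or without GFP-negative replicate 1. Leaving out any of the other 4 libraries gave adjusted p-values of 0.0834 to 0.150, and limma-voom and edgeR with TMM gave 0.0575 and 0.0612. Both Hox genes that follow eve1 in the RefSeq gene order, hoxb13a and hoxb10a, failed the filter on low values and were not tested. That filter asks for a value of 10 in 3 or more libraries. For hoxb13a the mean of each group was under 10. For hoxb10a the mean was 5.27 normalised reads in GFP-positive and 30.6 in GFP-negative libraries.

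The caudal gene cdx4, known in zebrafish as kugelig, activates Hox genes in the posterior body. It had 8473, 2149 and 8260 normalised reads in GFP-positive replicates 1, 2 and 3, and 13988, 5664 and 9161 in GFP-negative replicates 1, 2 and 3. Replicate 2 was the lowest library of each group, and the groups overlapped. The log2 fold change of -0.76 (SE 0.54; limma, adjusted p = 0.461) had a 95% interval from -2.01 to 0.49, so a 4.02-fold lower level and no difference both lay within it. Without GFP-positive replicate 2 the log2 fold change was -0.10.

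The T-box gene ta, the zebrafish Brachyury (no tail, now tbxta), is required for notochord and posterior mesoderm. It had 4250, 5591 and 9430 normalised reads in GFP-positive replicates 1, 2 and 3, and 8210, 13824 and 13378 in GFP-negative replicates 1, 2 and 3. GFP-positive replicate 3 lay above GFP-negative replicate 1, so the groups overlapped. The log2 fold change was -0.92 (SE 0.32; limma, adjusted p = 0.127; 95% interval -1.65 to -0.19). It passed without GFP-positive replicate 3 (-1.24, limma, adjusted p = 0.0347) and with library size alone (-1.23, limma, adjusted p = 0.0374). The latter setting called 1191 of all tested genes lower. As a share of ta in the same library, eve1 stood at 26.8%, 34.5% and 29.4% in GFP-positive and at 41.2%, 45.3% and 47.1% in GFP-negative replicates 1, 2 and 3 (exact two-sided permutation p = 0.1, adjusted 0.133). The ratio of these homeobox and T-box genes was thus lower in every GFP-positive library, which restates that eve1 had the lower log2 fold change of the pair. This pair too was chosen after the values were seen, and a permutation p of 0.1 is the smallest that 3 against 3 allows.

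The T-box gene tbx16 (spadetail) directs mesoderm cells to leave the margin and take paraxial fates. It had 14605, 38414 and 28906 normalised reads in GFP-positive replicates 1, 2 and 3, and 24263, 32297 and 33538 in GFP-negative replicates 1, 2 and 3. GFP-positive replicate 1 was lowest and GFP-positive replicate 2 highest of all 6 libraries. Its log2 fold change was -0.23 (SE 0.33; limma, adjusted p = 0.728; 95% interval -0.99 to 0.52), and it turned to 0.16 without GFP-positive replicate 1. An interval reaching a 1.98-fold lower level does not show that the groups were alike.

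The T-box gene tbx6 (fused somites, formerly tbx24) acts in presomitic mesoderm, where somite boundaries are set. It had 3486, 991 and 2097 normalised reads in GFP-positive replicates 1, 2 and 3, and 6084, 659 and 1170 in GFP-negative replicates 1, 2 and 3. Replicate 1 was the highest and replicate 2 the lowest library of each group. Within GFP-negative cells the highest library had 9.24 times the lowest, the widest spread among the 9 genes. The SD of its log2 values within groups was 1.34, against a median of 0.26 for the 5761 tested genes with a mean of at least 500 normalised reads. The log2 fold change of 0.21 (SE 0.78; limma, adjusted p = 0.905) had a 95% interval from -1.59 to 2.01 and changed sign in 7 of the 18 alternative settings, so no direction can be given. As a share of tbx16 in the same library, tbx6 stood at 23.9%, 2.58% and 7.25% in GFP-positive and at 25.1%, 2.04% and 3.49% in GFP-negative replicates 1, 2 and 3 (exact two-sided permutation p = 0.8). The mean of the tbx6 reads ran opposite to the log2 value, 2191 ± 1250 against 2638 ± 2996 (SD, n = 3 each). Older literature used the name tbx6 for another gene, which the files list as tbx6l; it had 1582, 1295 and 2573 normalised reads in GFP-positive and 5049, 2507 and 2985 in GFP-negative replicates 1, 2 and 3 (log2 fold change -0.95, limma, adjusted p = 0.127).

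The bHLH gene msgn1 (mesogenin) promotes paraxial fate together with tbx16. It had 7734, 6213 and 10133 normalised reads in GFP-positive replicates 1, 2 and 3, and 14769, 8570 and 9141 in GFP-negative replicates 1, 2 and 3. The groups overlapped through GFP-positive replicate 3. Its log2 fold change was -0.42 (SE 0.26; limma, adjusted p = 0.387; 95% interval -1.01 to 0.18), below 0 in all 18 alternative settings and called in 0 of them.

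**Figure D3:**
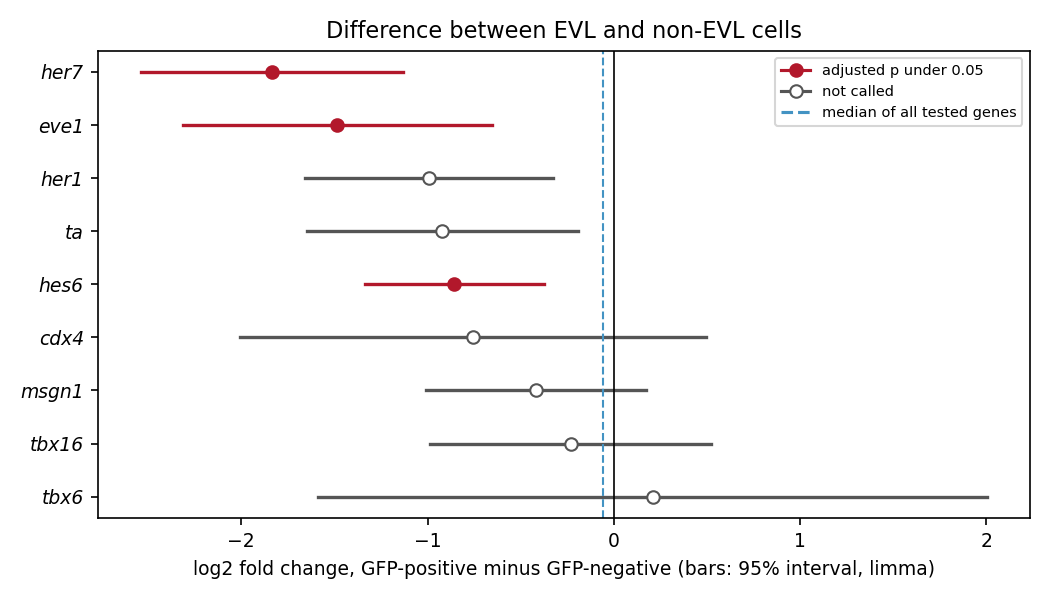
Log2 fold changes (GFP-positive minus GFP-negative) of the 9 genes with 95% intervals from limma; filled red points passed an adjusted p under 0.05 and the dashed line marks the median of all tested genes, -0.057. The values run from -1.83 for her7 to 0.21 for tbx6, whose interval is the widest.

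In all, 4 of the 9 genes (her1, her7, hes6 and eve1) had every GFP-positive library below every GFP-negative one, as had 13.5% of all tested genes. Relative to the GFP-negative mean, the median of the 9 genes was 48.6%, 37.6% and 79.9% in GFP-positive replicates 1, 2 and 3. GFP-positive replicate 3 held the highest value of its group for 6 of the 9 genes. The share of all tested genes for which that library was highest was not counted, so the count is not read as particular to the 9 genes. That library also had the lowest summed level of EVL markers in its group, 717062, against 2387570 and 1020190 in replicates 1 and 2. The part of this lower marker level in the result was not tested. Without that library 5 of the 9 genes were lower (her7, hes6, eve1, her1 and ta), and 77 of all tested genes.

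**Figure D4:**
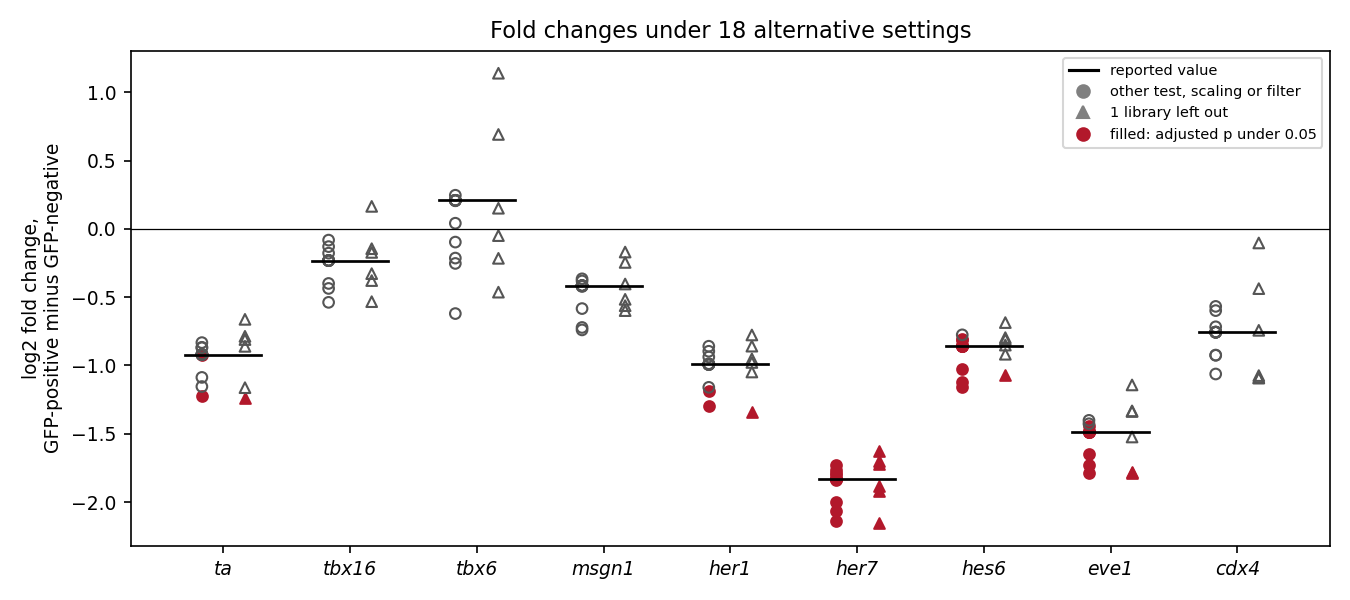
Log2 fold changes of the 9 genes under the reported fit (line), under other tests, scalings and filters (circles) and with 1 library left out (triangles); filled red symbols passed an adjusted p under 0.05. All symbols of her7 are filled, those of hes6 and eve1 are a mixture, and those of tbx6 lie on both sides of 0.

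Related genes were read from lists written from general knowledge, with earlier results of these data known. Among 23 tested genes of the clock and of Notch signalling other than her1, her7 and hes6, limma called 0 higher and 0 lower, with a median log2 fold change of -0.19 and 19 genes below 0. At an unadjusted limma p under 0.05, 4 were lower and 0 higher, beside 1150 of all 15971 tested genes lower. Of the list, edgeR with TMM called 0 and DESeq2 1 lower, and limma with library size alone called 3 lower. Among all 15971 tested genes, these settings called 54, 327 and 1191 lower, against 108 as reported. The delta ligands dlc and dld, which couple the clocks of neighbouring cells, and the Notch feedback gene nrarpb did not overlap between groups and missed the threshold (-1.03, -0.76 and -1.06; limma, adjusted p = 0.0926, 0.101 and 0.0605), a choice of genes made after their values were seen. The Notch receptor gene notch1a (-0.16, limma, adjusted p = 0.595) and the glycosyltransferase gene lfng (-0.061, limma, adjusted p = 0.924) had the highest read counts of the list, which are not adjusted for gene length. For lfng the sign changed in 3 alternatives.

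Of 24 tested rows for other T-box and mesoderm factors, where tbx1 has 2 rows, 2 were higher, 0 were lower and the median was -0.19. The higher genes were foxj1a, a regulator of motile cilia, with 1069, 567 and 559 normalised reads in GFP-positive and 45.2, 57.0 and 36.7 in GFP-negative replicates 1, 2 and 3 (log2 fold change 3.91), and the T-box gene tbx20 (4.08), which had at most 6.43 normalised reads in a GFP-negative library. The gene tbx20 passed the filter on low values only through the GFP-positive libraries. From the same list, hand2 had 0 normalised reads in every GFP-positive library and 23.5, 4.59 and 7.75 in GFP-negative replicates 1, 2 and 3. It failed the filter and was not tested, so the counts of higher and lower genes depend in part on the filter. The repressor gene snai1a (-0.42) and the apelin receptor gene aplnra (0.66) were abundant and not called (limma, adjusted p = 0.628 and 0.216). The groups did not overlap for aplnra. Nor did they for aplnrb (-0.90) and mespaa (-1.34), both lower and not called (limma, adjusted p = 0.132 and 0.142). Of all tested genes, 13.5% had every GFP-positive library below every GFP-negative one. The share with every GFP-positive library above was not counted. Counted at an unadjusted limma p under 0.05, 3 rows of the list were lower and 3 higher, beside 1150 of all 15971 tested genes lower. The number of all tested genes higher at that p was not counted.

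Dorsal forerunner cells, surface-derived cells at the dorsal margin that also express ta and tbx16, were checked through a list of 6 markers. All 4 tested markers were higher in GFP-positive cells: sox17, sox32, foxj1a and cftr, at log2 fold changes of 2.65, 2.56, 3.91 and 3.91. Among them, foxj1a is the same gene already counted as higher in the mesoderm factor list. Both sox17 and sox32 also mark endoderm, and they were the 2 called genes of the endoderm list, where 6 genes were tested and the median was 1.29. The forerunner list summed to 17552 to 27015 normalised reads in GFP-positive and 2280 to 4448 in GFP-negative libraries, with spaw and dand5 at no more than 5.21 in any library. The part of these cells in the levels of ta and tbx16 in GFP-positive libraries was not tested.

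Among 21 tested signal genes of the margin, 2 were higher and 2 lower, with a median of -0.25. The lower ones were szl (-2.20), an inhibitor of the proteases that cut Chordin, and the BMP ligand gene bmp4 (-0.91, limma, adjusted p = 0.0491). The call of szl held in all 18 alternatives and that of bmp4 in 8. The higher ones were the Wnt ligand genes wnt11 (0.70) and wnt3a (2.06; limma, adjusted p = 0.0333 and 0.0340), which kept their calls in 10 and 11 of the 18 alternatives. The Nodal coreceptor gene tdgf1 (0.60) and the retinoic acid enzyme gene aldh1a2 (-0.57) were not called. Of 19 tested targets of these signals, 0 were called in either direction by limma, 15 were below 0 and the median was -0.36. At an unadjusted limma p under 0.05, 5 were lower and 0 higher, beside 1150 of all 15971 tested genes lower. Of these targets, edgeR with TMM called 0 and DESeq2 1 lower, beside 54 and 327 of all tested genes. The Wnt target sp5l (-0.18) and the FGF target etv5b (0.093) had the highest read counts of the list.

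Caudal, even-skipped and Hox genes other than the 2 above mostly failed the filter on low values: 5 of 18 rows passed it, and 6 had 0 reads in every library. The Hox gene hoxb1b, marking early posterior neural tissue and margin, had 1295, 5.54 and 888 normalised reads in GFP-positive and 2294, 32.2 and 887 in GFP-negative replicates 1, 2 and 3. The homeobox gene gbx1 had 373, 35.4 and 674 in GFP-positive and 1316, 235 and 842 in GFP-negative replicates 1, 2 and 3. In both, as in tbx6, cdx4, hes6 and msgn1, replicate 2 was the lowest library of each group. Of all tested genes, 42.6% had the same lowest replicate number in both groups, whichever number it was. The pattern is thus not read as particular to these genes. Neither was called (limma, adjusted p = 0.818 and 0.418).

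**Figure D5:**
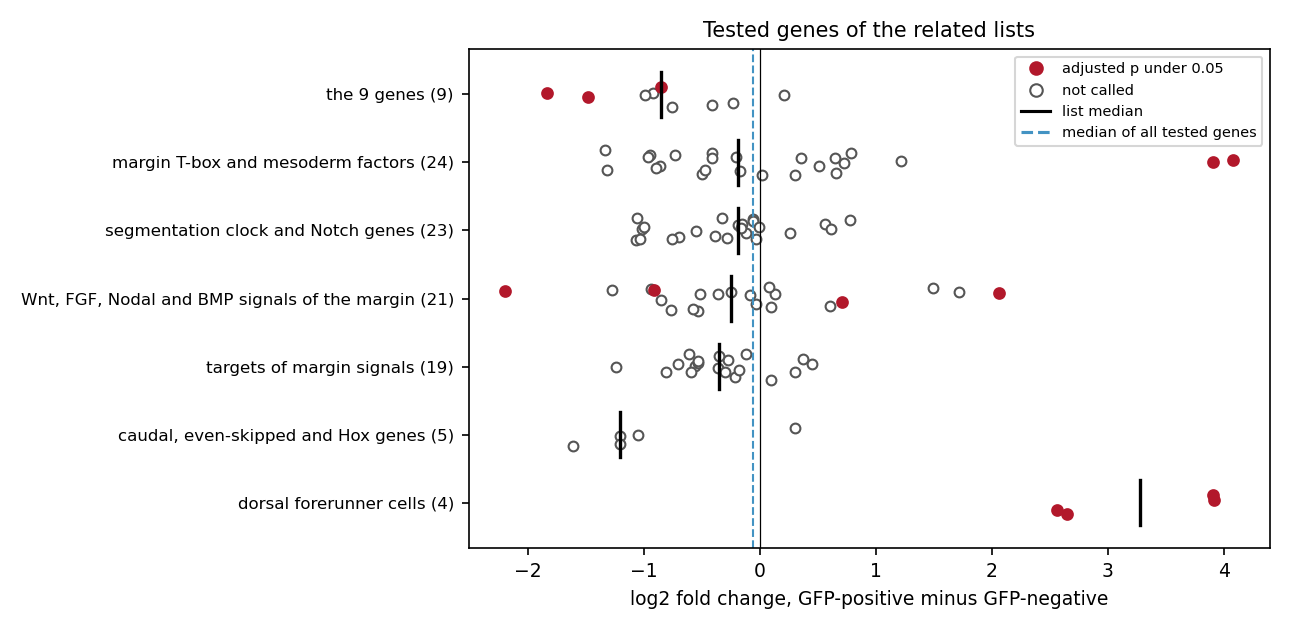
Log2 fold changes of the tested genes of each list (points; red where the adjusted p was under 0.05) with list medians as black lines and the median of all tested genes dashed. The 9 genes have a median of -0.86, the 4 dorsal forerunner markers lie at 2.56 or above, and the clock and signal-target lists hold no called gene.

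The genes nearest in pattern to each called gene were found by the root mean square difference of log2 values, centred on each gene's mean, over the 6 libraries and 10136 other genes with a mean of at least 100 normalised reads. This distance includes the difference between the groups, so genes near a called gene tend to share its direction. Whether such closeness over 6 libraries exceeds that of unrelated genes was not tested. Nearest to her7 were szl (0.26), ZC3H7B (2 of 2) (0.30) and kazald2 (0.35). Nearest to hes6 were cers2b (0.073), fam58a (0.084) and tsc22d3 (0.095). Nearest to eve1 were bambia (0.16), a decoy receptor gene of BMP signalling, mre11a (0.22) and map1aa (0.22). The bambia gene itself had 1314, 1776 and 2818 normalised reads in GFP-positive and 3028, 5123 and 5596 in GFP-negative replicates 1, 2 and 3, and missed the threshold (log2 fold change -1.24, limma, adjusted p = 0.0527).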

How the data were processed

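The authors deposited 1 normalised signal value per gene and library. Per the submitters' processing notes the tools were Trim Galore, STAR 2.6.1d, featureCounts and DESeq2, with danRer10; annotation, strand setting and multi-mapping are not given in the sources used here. Per the labels, SMARTseq2 libraries were read as 50-nt single ends, without molecular identifiers. Dividing by each column's smallest value gave whole reads for 100% of values (within 0.01 read), with factors equal to recomputed DESeq2 size factors.

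The 15971 genes that reached a value of 10 in 3 or more libraries were tested with limma on log2(value + 1), group as the only term, trend and robust shrinkage. On recovered reads edgeR with TMM called 1409 genes higher and 54 lower. Analyses used limma 3.58.1, DESeq2 1.42.0 and edgeR 4.0.16 under R 4.3.3. The fit was also run on simulated counts with known changes, the same dispersion for every gene and no replicate effect. That run checks the fitting step and not the calls made here. Named genes were the 9 genes, up to 3 called and 2 abundant uncalled genes per list, and 3 nearest genes per called gene. The genes bmp4, cftr, dlc, dld, nrarpb, tbx6l, aplnrb, mespaa, tbx1, hand2, krt18, hoxb13a, hoxb10a, spaw and dand5 were added after values were seen. Lists of endoderm, dorsal mesoderm, yolk syncytial, germ cell and neural markers had 2 and 0, 1 and 0, 1 and 0, 0 and 3, and 0 and 3 genes called higher and lower, of 6, 10, 5, 6 and 9 tested. The genes and lists were chosen with earlier results of these data known.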

Additional observations from a re-analysis of the deposited data

How the results depend on the processing

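Across 18 alternatives, 0 of the 9 genes were called higher. The number called lower was 3 as reported, 1 in edgeR with TMM, 5 with library size alone in limma, and 1 to 5 with 1 library left out. All tested genes called lower numbered 108 as reported, 54 in edgeR with TMM, 930 in edgeR with library size alone, 1191 with library size alone in limma, 327 in DESeq2, 47 in limma-voom, 174 with the total outside the most abundant gene, and 14 to 77 with 1 library left out. Library size alone moved the median log2 fold change of all tested genes to -0.36 in limma and -0.37 in edgeR, and that of the 9 genes to -1.16 and -1.12; the median of the 9 genes minus that of all genes ran from -1.01 to -0.66 over the 18 alternatives.

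The titles number replicates in both groups. Deviations from group means correlated across genes at r = 0.26, 0.33 and 0.075 for replicates 1, 2 and 3, and each library correlated best with its own number, a hint from the data and not from the design. With replicate number as a block, 4 of the 9 genes were lower (ta added, adjusted p = 0.0228) and 279 of all genes.

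The sign of uncalled genes changed as follows, and the cause was not tested. The log2 fold change of tbx6 was -0.097 with library size alone in limma, -0.21 in edgeR with TMM, -0.62 in edgeR with library size alone, -0.25 in DESeq2 and -0.46 to 1.14 with 1 library left out; tbx16 ran from -0.53 to 0.16, snai1a from -0.81 to 0.11 and sp5l from -0.32 to 0.050 with 1 library left out. For lfng it was 0.021 in edgeR with TMM, for etv5b -0.21, -0.074 and -0.20 with library size alone in limma, the total outside the most abundant gene, and library size alone in edgeR. With 1 library left out, lfng ran from -0.33 to 0.17, etv5b from -0.059 to 0.23 and hoxb1b from -2.87 to 1.40. Each of the 9 genes had at least 206 reads in every library. The Hox gene hoxb1b had 5.54 normalised reads in GFP-positive replicate 2, where its value is uncertain.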
